A study of Mus musculus with 72 samples.

Results

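Csnk1d, Csnk1e and Btrc encode a pair of kinases and an F-box protein that act in marking the PERIOD proteins of the circadian clock for destruction. The 3 genes were chosen by symbol for that role and were read in all 72 RNA-seq libraries of a mouse feeding study, where they are 3 of 22823 genes in the liver table and 3 of 15759 in that of the suprachiasmatic nucleus (SCN), the hypothalamic nucleus that holds the central clock. C57BL/6 mice aged 8 to 12 weeks, with no other allele named, were fed for 11 days either without methionine and choline (the MCD diet) or with an isocaloric control diet, as much as they wished. Lights followed a 12 h light and 12 h dark cycle for 10 days, the last day was spent in darkness, and mice were killed at circadian times (CT) 0, 4, 8, 12, 16 and 20. Tissue, diet and time made 24 groups of 3 libraries, 2 labelled male and 1 labelled female, while the protocol text speaks of males alone. Liver RNA was taken from the middle of the left lobe, and SCN RNA from stained brain sections by laser microdissection.

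PER proteins, made from Per1, Per2 and Per3, enter the nucleus with the cryptochromes CRY1 and CRY2 and repress their own genes, and the time they take to build up and be destroyed helps to set the length of the daily cycle. Casein kinase 1 delta (Csnk1d) and casein kinase 1 epsilon (Csnk1e) phosphorylate PER. The F-box protein beta-TrCP (Btrc) recognises phosphorylated PER and brings it to the SCF ubiquitin ligase, which tags it for the proteasome. Its paralog Fbxw11 can do the same. Mutations in either kinase are known to change the period of behavioural rhythms in mammals. Transcript levels were measured here, and not kinase activity or protein.

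Csnk1d lies at chr11:120961749-120991330 on the minus strand of GRCm38 (GENCODE M21), Csnk1e at chr15:79417856-79455566 on the minus strand, and Btrc at chr19:45363734-45530013 on the plus strand. M21 lists 8 transcripts of Csnk1d, of which 4 are coding, and Csnk1d-201 and Csnk1d-202 end in different amino acids. Csnk1d-201 encodes the isoform known as CK1δ1 and Csnk1d-202 that known as CK1δ2, and these tails have been described as giving PER2 different stability, so the ends of their coding sequences are shown. Both share the first 399 codons. Csnk1d-202 then takes in an exon of 63 nt at chr11:120964948-120965010, which ends its reading frame, and Csnk1d-201 skips that exon and reads into the last exon instead. The last 30 shared bases are in lower case and the codons of the differing last coding exon, with the stop codon, in capitals, 5′ to 3′ on the coding strand.
Csnk1d-201: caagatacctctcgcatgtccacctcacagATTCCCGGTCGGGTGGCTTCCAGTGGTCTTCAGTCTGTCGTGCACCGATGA
Csnk1d-202: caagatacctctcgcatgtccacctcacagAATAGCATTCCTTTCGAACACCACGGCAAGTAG
Csnk1d-201 has 415 codons, of which 16 come from its last exon, and Csnk1d-202 has 409, of which 10 come from the 63 nt exon. The counts of that exon are given with the other exon bins of Csnk1d further on.

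Liver libraries held 52.6 to 86.7 M gene counts and SCN libraries 23.3 to 79.8 M. Over 1857 genes that differ between the diets, the liver library labelled control CT8 a had a diet score of 0.862, inside the range of the MCD libraries (0.167 to 1.77) and above that of the other 17 controls (-1.35 to -0.462), so results that rest on it are given with and without it. The mitochondrial transcript mt-Nd6 split the liver libraries into 21 of low and 15 of high level, and 13 of the 18 MCD libraries but 8 of the 18 controls fell among the low ones. Hepatocyte markers made up 6.99% to 12.2% of liver counts, and all 7 markers of SCN neurons were found in the SCN at a summed level of 1599 to 4188 counts per 1000000 (CPM), beside 2 of 7 in the liver table. Levels below are CPM normalised within a tissue (trimmed mean of M values, TMM). Tests are edgeR's quasi-likelihood test over all genes of a table with adjustment by Benjamini-Hochberg, and a gene was called where the adjusted p was below 0.05. Which liver and SCN libraries share a mouse is not in the labels, and p-values measure the spread between these samples.

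Csnk1e rose most of the 3 members in the liver of mice on the MCD diet. Its level was 6.34 CPM in the lowest, 9.41 in the median and 12.8 in the highest of the 18 control livers, and 10.9, 13.4 and 20.0 CPM in the 18 MCD livers. The groups overlapped in few libraries: 11 of 18 MCD livers lay above every control, and 17 of 18 did once control CT8 a, itself the highest control, was left out. The mean rose from 9.10 ± 1.70 to 14.3 ± 2.90 CPM (SD, n = 18 each), a fitted change of 0.65 ± 0.07 (SE) on the log2 scale, or 1.57-fold with a 95% interval of 1.43 to 1.72 (adjusted p = 2.47e-08). Csnk1d rose as well, by a smaller step, and Btrc did not pass the test, so 2 of the 3 members were called higher against a background of 25.3% of all liver genes called higher and 46.6% called in either direction.

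By time, the difference in Csnk1e was widest at CT4, where the 3 control livers held 8.76, 9.51 and 10.4 CPM and the 3 MCD livers 15.2, 19.8 and 20.0 CPM. At CT0 the controls held 6.34, 6.83 and 9.42 CPM and the MCD livers 11.6, 12.9 and 15.7 CPM. All MCD livers lay above all controls of the same time at 5 of 6 times, and at all 6 times without control CT8 a. Such a separation upward was found for 6.57% to 20.1% of genes at a single time. The change was called at CT0 (0.84 ± 0.17, log2), CT4 (0.94 ± 0.17), CT12 (0.88 ± 0.17) and CT20 (0.64 ± 0.17), where 12.6%, 18.2%, 15.2% and 11.3% of genes were called. It was 0.41 ± 0.17 at CT16 (adjusted p = 0.11; 12.5% of genes called) and 0.19 ± 0.17 at CT8 (adjusted p = 0.728; 1.3% called). At CT8 the controls were at 9.40, 10.7 and 12.8 CPM, the last being library a, and the MCD livers at 12.4, 12.7 and 12.9 CPM. Without library a the change at CT8 was 0.36 ± 0.18 (adjusted p = 0.288), where 1212 genes were called in place of 263. The change at CT16 was called with library totals alone (0.68, adjusted p = 0.0381). The call at CT20 was lost when control CT20 1 (0.59, adjusted p = 0.0658), control CT20 2 (0.60, adjusted p = 0.0639), MCD CT20 1 (0.59, adjusted p = 0.0662) or MCD CT20 3 (0.60, adjusted p = 0.0561) was left out, and without all libraries numbered 2 (0.67, adjusted p = 0.0842) or 3 (0.70, adjusted p = 0.0581). That at CT12 was lost without number 2 (0.54, adjusted p = 0.175). Without number 1 no time was called, at changes of 0.75 (CT0), 0.81 (CT4), 1.01 (CT12) and 0.55 (CT20).

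Csnk1d, the more abundant kinase, was at 62.3, 70.7 and 78.2 CPM in the lowest, median and highest control liver and at 65.9, 79.6 and 89.6 CPM on the MCD diet. The ranges overlapped over most of their width, with 11 of 18 MCD livers above every control, and at 4 of 6 times all MCD livers lay above all controls of the same time. Its mean was 70.4 ± 4.8 CPM on control and 78.9 ± 6.4 CPM on MCD diet (SD, n = 18 each), a change of 0.16 ± 0.03 (log2), or 1.12-fold with an interval of 1.07 to 1.17 (adjusted p = 0.000193). At CT20 the MCD livers held 84.3, 85.0 and 85.4 CPM and the controls 71.4, 72.7 and 77.8 CPM, and at CT8 the means were 69.6 ± 7.9 CPM on control and 70.1 ± 4.2 CPM on MCD diet (SD, n = 3 each). These CT8 controls were library a at 78.2 CPM and the other 2 at 62.8 and 67.9 CPM, and without a the change at CT8 was 0.09 ± 0.08 (log2, adjusted p = 0.624). Of single times only CT12 was called (0.24 ± 0.08, adjusted p = 0.0457), and no time was called with other size factors (RLE), with limma, without a filter on low counts, without a term for sex, without the libraries of any 1 number, or without any 1 of 26 of the 36 single liver libraries. Within each kind of liver library by mt-Nd6 the change was not called, at 0.12 in the high kind (adjusted p = 0.135) and 0.13 in the low kind (adjusted p = 0.0631).

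Btrc was the 1 member whose liver level lay lower on the MCD diet, by an amount that did not pass the test. Control livers ranged from 11.0 over a median of 14.9 to 20.6 CPM and MCD livers from 11.6 over 15.0 to 16.2 CPM, so that the MCD range lay wholly inside that of the controls. At 1 of 6 times, CT4, all MCD livers (14.9, 15.7 and 16.2 CPM) lay below all controls (16.5, 16.9 and 18.7 CPM). The share of all genes with such a separation downward was not counted, and 17.3% of genes separated upward at CT4. The means of Btrc were 15.5 ± 2.4 CPM on control and 14.5 ± 1.5 CPM on MCD diet (SD, n = 18 each). This was a difference of -0.10 ± 0.05 (log2, or 0.936-fold with an interval of 0.878 to 0.998, adjusted p = 0.103). The highest controls were the CT8 libraries a and b at 20.6 and 19.8 CPM, above the 14.3, 15.1 and 15.7 CPM of the MCD livers of that time, while the third control stood at 14.4 CPM. No single time was called for Btrc, and under library totals in place of TMM the sign turned (0.16, adjusted p = 0.0333). Btrc was called lower with a term for the mt-Nd6 kind (-0.12, adjusted p = 0.0406) and without any 1 of control CT8 3, control CT20 1, MCD CT12 1, MCD CT16 2 and MCD CT20 2 (-0.12 to -0.11, adjusted p = 0.0357 to 0.0498). Btrc shares its locus with Gm6807, a processed pseudogene on the opposite strand with a median of 616 counts in liver beside 930 for Btrc. A strand setting of the counting is not given in the sources used here, and reads of the 2 genes may not have been kept apart.

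**Figure D1:**
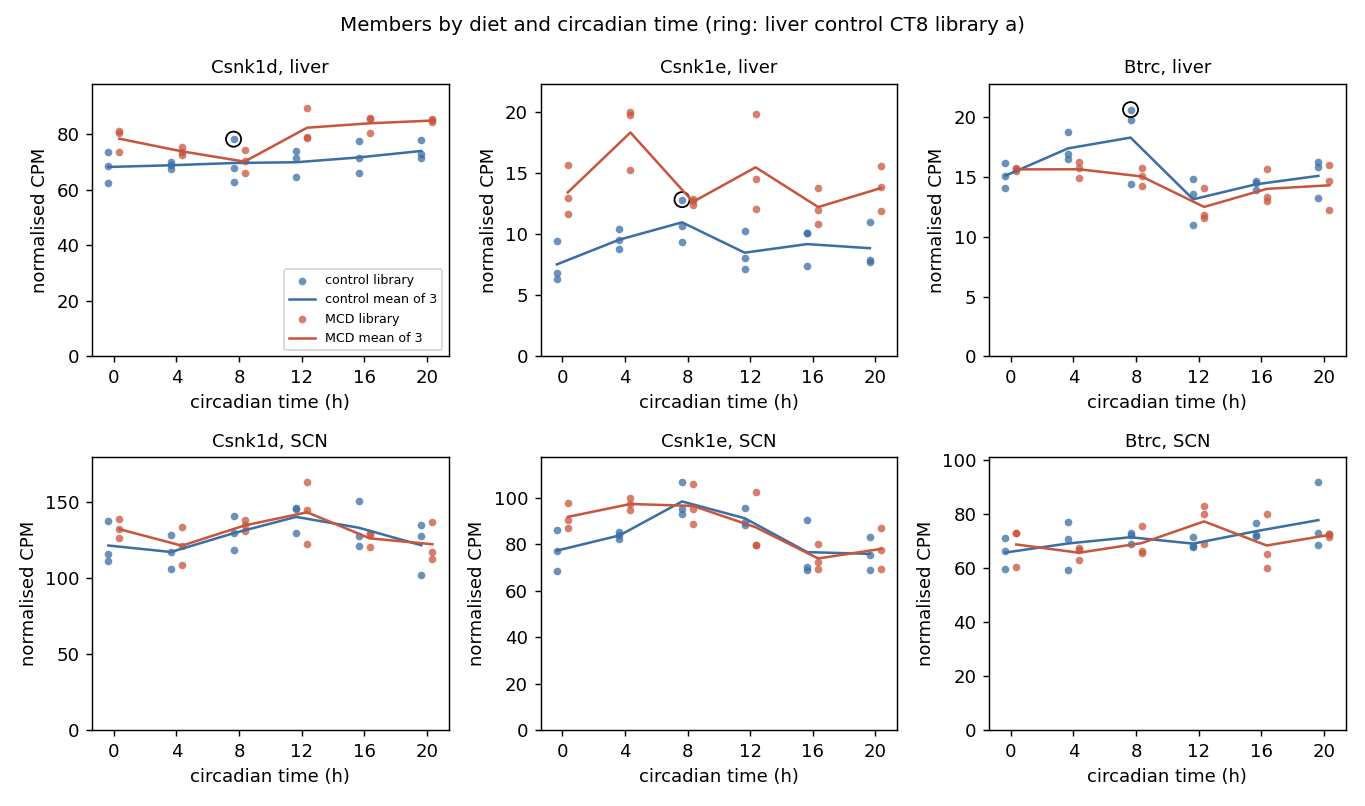
Levels of Csnk1d, Csnk1e and Btrc in normalised CPM (y axis) against circadian time in hours (x axis) in liver (top) and SCN (bottom), 1 point a library, lines through the means of 3, and a ring around liver control CT8 a. In liver the MCD points of Csnk1e (10.9 to 20.0 CPM) sit above the control points at every time but CT8, and in the SCN the diets overlap at each time except for Csnk1e at CT0 and CT4.

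In the SCN none of the 3 members was called, against a background of 10 genes called of 15759 (0.0635%) in edgeR, or 16 without control CT0 3 and 17 without control CT16 3. For the mean over the 6 times none of the 3 had an unadjusted p below 0.05, and DESeq2 and limma called none of the 3, with 48 and 20 genes called over the whole table. Csnk1d was at 102, 128 and 150 CPM in the lowest, median and highest control SCN and at 109, 130 and 163 CPM on the MCD diet, a difference of 0.03 ± 0.04 (log2; interval -0.04 to 0.11). Csnk1e was at 68.6, 84.8 and 107 CPM on control and at 69.4, 87.9 and 106 CPM on MCD diet, a difference of 0.06 ± 0.04 (interval -0.03 to 0.15). Btrc was at 59.1, 71.2 and 91.7 CPM and at 59.8, 70.1 and 82.8 CPM, a difference of -0.02 ± 0.05 (interval -0.11 to 0.07). The intervals of the SCN thus reach at most 0.15 upward for Csnk1e, below the lower bound of 0.52 for its liver change. For Csnk1e all 3 MCD libraries lay above all 3 controls at CT0 (87.1, 90.5 and 98.0 against 68.6, 77.4 and 86.0 CPM) and at CT4 (95, 97.4 and 99.9 against 82.2, 84.0 and 85.5 CPM). A separation upward was seen at those times for 5.34% and 4.16% of all genes, and neither difference was called (0.25 ± 0.11, unadjusted p = 0.0312 and adjusted p = 1.0; 0.22 ± 0.11, unadjusted p = 0.0589 and adjusted p = 0.91; 0.00635% and 0.0444% of genes called).

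The difference between the tissues was tested in a joint fit of all 72 libraries over the 14491 genes of both tables that passed the filter. The diet change of Csnk1e was larger in liver than in SCN by 0.59 ± 0.08 (log2, adjusted p = 3.13e-07), where 34.7% of genes were called. For Csnk1d the difference was 0.13 ± 0.05 (adjusted p = 0.0571) and passed the threshold without control CT8 a (0.14, adjusted p = 0.0275). For Btrc it was -0.08 ± 0.07 (adjusted p = 0.355). No member's diet change was called as different between the sexes, with liver differences (female minus male) of 0.08 ± 0.07 for Csnk1d, -0.09 ± 0.15 for Csnk1e and 0.03 ± 0.10 for Btrc, where 1.77% of liver genes were called. The same differences in the SCN were 0.09 ± 0.08, 0.09 ± 0.10 and -0.07 ± 0.10, where edgeR called 0 of 15759 genes, 826 had an unadjusted p below 0.05 and DESeq2 called 1.

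The ratio of the 2 kinases puts their liver changes on 1 scale. It was taken up after the values had been seen and follows from the changes already given, so it is a description with no test. Counts of Csnk1e per 100 counts of Csnk1d, a measure that needs no scaling between libraries, were 8.60 in the lowest, 13.3 in the median and 16.4 in the highest control liver, and 13.5, 17.4 and 27.1 in MCD livers. The mean log2 ratio was 0.49 ± 0.10 (SE) higher on the MCD diet, or 1.4-fold. The ratio was 1.42-fold without control CT8 a, 1.38-fold among the libraries of low mt-Nd6 and 1.48-fold among those of high mt-Nd6. In the SCN the ratio was 66.4 ± 7.7 on control and 67.9 ± 9.9 on MCD diet (SD, n = 18 each).

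**Figure D2:**
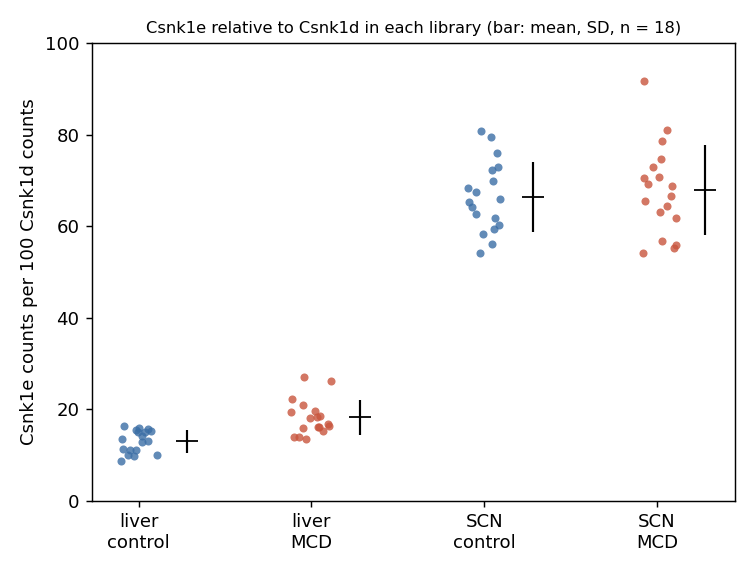
Counts of Csnk1e per 100 counts of Csnk1d (y axis) in each library of liver and SCN by diet, with the mean and SD of 18 libraries beside each column of points. Control livers lie between 8.60 and 16.4 and MCD livers between 13.5 and 27.1, while both SCN groups lie at 54.1 and above.

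Markers of other cells moved with the diet in liver. All 5 markers of macrophages rose, among them Trem2 (2.39 ± 0.32, log2), Cx3cr1 (1.91 ± 0.28) and Cd68 (1.01 ± 0.15). Of all liver genes 25.3% were called higher and 21.2% lower. The summed level of the 5 ran from 55.6 to 224 CPM in controls and from 113 to 309 CPM in MCD livers. Sums of markers are scaled by library totals alone, without TMM, unlike the log2 changes beside them. Of 5 hepatocyte markers 4 fell, from Apoa1 (-0.27 ± 0.07) to Serpina1c (-0.85 ± 0.10), and Alb was not called (0.14 ± 0.08). The summed level of these 5, scaled by library totals, had a higher median in MCD livers (104353 CPM) than in controls (85310 CPM). Of 2 stellate cell genes tested Dcn rose by 0.35 ± 0.08 and Lrat was not called (0.12 ± 0.14, adjusted p = 0.518). The haemoglobin genes Hba-a1 (-0.76 ± 0.16) and Hbb-bs (-0.94 ± 0.14) of red blood cells fell, and of the endothelial genes Cldn5 fell (-0.27 ± 0.06) and Pecam1 rose (0.19 ± 0.06). Their part in the rise of Csnk1e and Csnk1d was not tested, and in whole liver, fewer cells of a type and less RNA per cell cannot be told apart. In the SCN none of the 5 macrophage and microglia markers was called.

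A 24 h rhythm was tested by the cosine and sine parts of the 6 time means of each diet, and its range is the fitted distance from trough to peak on the log2 scale. Of the 3 members only Csnk1e was called as rhythmic in the SCN on either diet, where 15.1% of genes were called on control and 16.1% on MCD diet. On the control diet its time means ran from 75.9 ± 7.2 CPM at CT20 to 98.5 ± 7.3 CPM at CT8 (SD, n = 3), with a range of 0.38 and a fitted peak at 8.63 h (adjusted p = 0.0116). On the MCD diet they ran from 74.0 ± 5.4 CPM at CT16 to 97.4 ± 2.4 CPM at CT4, with a range of 0.42 and a peak at 5.28 h (adjusted p = 0.00458). The difference between the diets' rhythms had an unadjusted p of 0.040 and an adjusted p of 1.0, and 0.0127% of SCN genes were called for it. The control call was lost without the libraries numbered 2 (range 0.30, adjusted p = 0.200) or 3 (0.34, adjusted p = 0.109), and the MCD call without those numbered 3 (0.30, adjusted p = 0.207). Csnk1d had a range of 0.24 with a peak at 12.8 h on control (adjusted p = 0.095) and 0.15 on MCD diet (0.392), and Btrc of 0.13 on both diets.

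In liver, Csnk1d was called as rhythmic on the MCD diet and Btrc on the control diet, where 28.2% and 17.8% of genes were called. The MCD means of Csnk1d ran from 70.1 ± 4.2 CPM at CT8 to 84.9 ± 0.6 CPM at CT20 (SD, n = 3), a range of 0.27 with a peak at 17.8 h (adjusted p = 0.00939), while its control means stayed between 68.2 ± 5.7 and 74.0 ± 3.3 CPM (range 0.09, adjusted p = 0.622, or 0.14 without control CT8 a). The control means of Btrc ran from 13.1 ± 1.9 CPM at CT12 to 18.2 ± 3.3 CPM at CT8, a range of 0.34 with a peak at 4.39 h (adjusted p = 0.0341), and its MCD range was 0.28 (adjusted p = 0.0698). That MCD rhythm was called with DESeq2 (range 0.30, adjusted p = 0.0300), RLE (0.30, adjusted p = 0.0494) or a term for the mt-Nd6 kind (0.30, adjusted p = 0.0378), and without control CT8 3, MCD CT12 1 or MCD CT16 2 (0.28 to 0.33, adjusted p = 0.0441 to 0.0458). Neither gene's rhythm was called as different between diets (adjusted p = 0.473 for Csnk1d and 0.663 for Btrc), where 4.87% of genes were. The call of Csnk1d was lost without the libraries of any 1 number (range 0.32 and adjusted p = 0.0721 without number 1, 0.22 and 0.241 without 2, 0.25 and 0.0952 without 3) and with library totals alone (0.22 and 0.331). That of Btrc was lost without control CT8 a (range 0.31, adjusted p = 0.0529), without any 1 of the control libraries CT0 1, CT0 3, CT4 1, CT4 3, CT8 b, CT16 1, CT16 2 and CT20 1 (ranges 0.31 to 0.34, adjusted p = 0.0519 to 0.0999) and without the libraries numbered 1 (range 0.25, adjusted p = 0.501) or 2 (0.42, adjusted p = 0.114). Csnk1e was not called in liver on control (range 0.31, adjusted p = 0.247, or 0.20 without control CT8 a) or MCD diet (range 0.29, adjusted p = 0.260).

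Per kilobase of annotated exon, the 3 members stood in the same order in both tissues. Csnk1d was highest at 14.0 ± 0.96 CPM in control liver and 25.3 ± 2.8 CPM in control SCN (SD, n = 18 each), Csnk1e followed at 1.38 ± 0.26 and 12.7 ± 1.6 CPM, and Btrc at 0.918 ± 0.140 and 4.20 ± 0.41 CPM, each scaled within its own tissue. The place of Btrc below Csnk1e in liver rests on the division by length, since before it the liver means were 15.5 CPM for Btrc and 9.10 CPM for Csnk1e, and the SCN means 71.0 and 83.9 CPM. Scaled by length, neighbours in this order were further apart than the sum of their SDs in both tissues. In the joint fit, where 90.4% of genes were called (46.3% higher and 44.1% lower in the SCN), Csnk1e was 5.01-fold higher in the SCN (2.33 ± 0.07, log2; adjusted p = 6.63e-35) and Btrc 2.29-fold (1.2 ± 0.05; adjusted p = 1.86e-27). Csnk1d differed by -0.09 ± 0.04 (adjusted p = 0.0365), and that direction rests on the scaling and the fit. It was -0.03 with DESeq2 (adjusted p = 0.569) and 0.61 with library totals alone (adjusted p = 6.01e-16), a setting that shifted the median of all genes from 0.04 to 0.75. The sign also turned with the library numbers as a block in place of sex, a fit given further on. The call was also lost without control CT8 a (-0.07, adjusted p = 0.0925) and without the libraries numbered 2 (-0.07, adjusted p = 0.295) or 3 (-0.09, adjusted p = 0.0614). The tables hold genes past different lowest counts, so these values compare genes within the shared set.

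Of the 5 substrate genes 3 were called for diet in liver, 1 higher and 2 lower, where 46.6% of all genes were called. Per1 rose by 0.66 ± 0.23 (log2, adjusted p = 0.0217), and Per3 and Cry2 fell by 0.64 (SE 0.18, adjusted p = 0.00399) and 0.38 (SE 0.08, adjusted p = 0.000236). These are means over the 6 times. The Per1 mean was lower on MCD diet at CT20 (17.7 against 31.2 CPM), near level at CT12 (74.1 and 73.4) and higher at the other times. The Per3 mean was not lower at CT4 (18.4 against 17.2) or CT8 (65.3 against 62.7, with control library a at 24.7), but was at the other times. The Cry2 mean was lower at each time. Per2 (-0.26 ± 0.23) and Cry1 (-0.16 ± 0.12) were not called. All 5 were rhythmic on both diets in both tissues, with liver ranges on the control diet of 0.76 for Cry2, 2.62 for Cry1, 2.84 for Per2, 3.65 for Per1 and 4.31 for Per3, beside 0.34 for Btrc, the widest of the members there. In the SCN on the MCD diet Cry2 had a range of 0.29, below the 0.42 of Csnk1e. In the SCN no substrate was called for diet by edgeR, where 1 of 5 (Per1, 0.17 ± 0.07) had an unadjusted p below 0.05, and the rhythms of all 5 had an unadjusted p below 0.05 but no call for a difference between diets.

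A list of 35 other genes of PER and CRY turnover was set beside the members. In liver 15 of the 35 were called for diet (42.9%), 5 higher and 10 lower, a share close to the 46.6% of all genes, and the list's median change was -0.03 beside 0.02 for all genes. The largest called changes were in Cul4a, a ubiquitin ligase scaffold (-0.35 ± 0.05), Mdm2, a ubiquitin ligase best known for p53 (0.34 ± 0.05), Siah2, a RING ubiquitin ligase (0.28 ± 0.07), Ppp2cb, a catalytic subunit of protein phosphatase 2A (0.25 ± 0.05), Prkaa2, a catalytic subunit of the energy sensor AMPK (-0.24 ± 0.07), and Fbxw11, the paralog of Btrc (0.22 ± 0.04). Prkaa2 was not called without the libraries numbered 1 (-0.21, adjusted p = 0.0908) or 2 (-0.17, adjusted p = 0.125) or within either kind by mt-Nd6 (-0.28 in the high kind, adjusted p = 0.131; -0.19 in the low kind, adjusted p = 0.262), and was at 0.01 with library totals alone. Siah2 was not called within the high kind (0.32, adjusted p = 0.128) or the low kind (0.20, adjusted p = 0.146). Ppp2cb (0.16, adjusted p = 0.0634) and Fbxw11 (0.23, adjusted p = 0.0505) were not called within the high kind. These subsets hold fewer libraries, and all but the library totals kept the direction. Fbxw11 thus rose, from 36.5 ± 2.9 to 42.5 ± 4.3 CPM (SD, n = 18 each; adjusted p = 1.78e-05), where Btrc was not called. Among the 7 other casein kinases none was called higher and 2 fell, the casein kinase 2 subunits Csnk2a1 (-0.19 ± 0.04) and Csnk2b (-0.17 ± 0.04), and the casein kinase 1 genes Csnk1a1, Csnk1g1, Csnk1g2 and Csnk1g3 were not called. The other kinases gave 2 of 6 lower, the phosphatases 2 higher and 2 lower of 6, the ligase genes 3 higher and 3 lower of 12, and the deubiquitinases 1 lower of 4. With library totals alone, which moved the median of all genes from 0.02 to 0.27, the split of the list became 28 higher and 1 lower. In the SCN none of the 35 was called by edgeR, DESeq2 or limma, and 1 had an unadjusted p below 0.05 (Mapk8, a JNK kinase, 0.11).

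**Figure D3:**
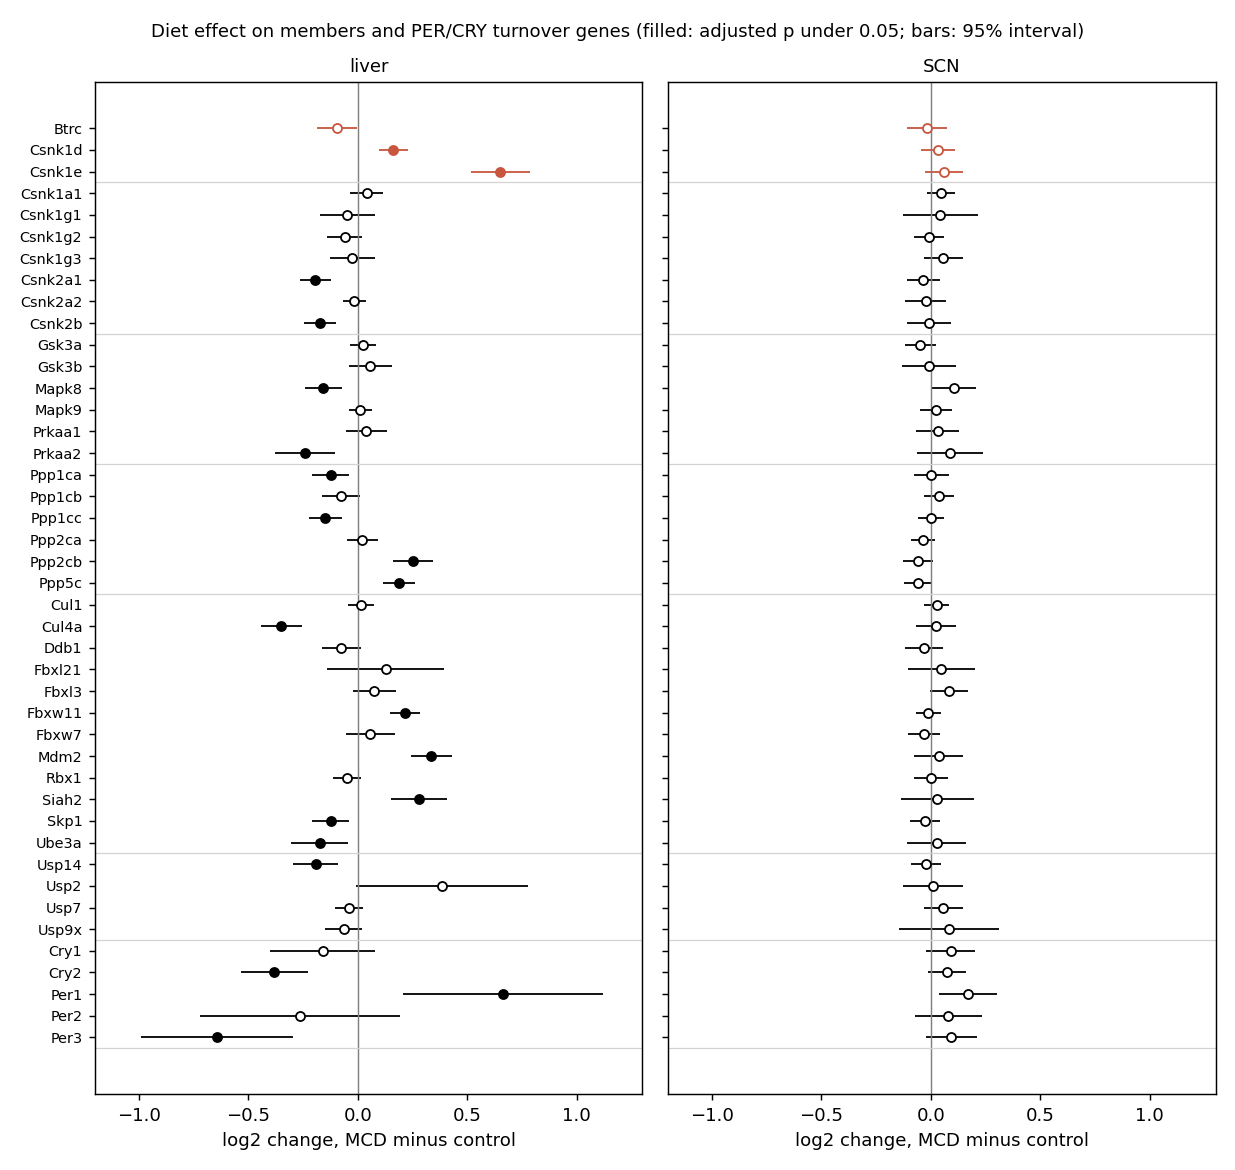
Diet change on the log2 scale (x axis, MCD minus control, bars are 95% intervals) of the 3 members (top, coloured), 35 turnover genes by group and the 5 substrate genes (bottom) in liver and SCN, with filled points where the adjusted p was below 0.05. In liver Csnk1e (0.65) lies furthest to the right of the members and kinases, and in the SCN all points are open.

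In liver 11 of the 35 were called as rhythmic on control and 16 on MCD diet, and in the SCN 3 and 5, shares of 31.4%, 45.7%, 8.57% and 14.3% beside the backgrounds of 17.8%, 28.2%, 15.1% and 16.1%. Usp2, a deubiquitinase, had a liver range of 5.34 on control and 5.10 on MCD diet and differed between diets in its rhythm (adjusted p = 0.0306; fitted peaks at 12.8 and 11.0 h). Ppp1ca (adjusted p = 0.0170), Prkaa2 (0.0302) and Fbxl21 (0.0492) were the other genes of the list whose liver rhythm differed. Fbxl21, an F-box protein that binds CRY, and Prkaa2 were the widest of the list in the SCN, with control ranges of 2.69 and 1.52. The diet changes of 11 of the 35 differed between tissues (31.4%, beside 34.7% of all genes).

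The genes whose levels were most like each member over the 36 libraries of a tissue were taken by Pearson's r of log2 CPM among genes of at least 5 CPM, 10377 in liver and 12436 in the SCN. These libraries share diets, times and, in liver, the 2 kinds of library, so the values are descriptions. In liver Csnk1e was most like Icam1 (r = 0.918), a leukocyte adhesion molecule, Tmprss2 (0.918), a membrane serine protease, and Ctsb (0.913), a lysosomal protease. Csnk1d was most like Jund (0.854), an AP-1 transcription factor, Sp2 (0.819) and Dcakd (0.809), and Btrc less closely like Zfp362 (0.724) and Mob3b (0.711). In the SCN the nearest genes were Ctr9 (0.820), Copa (0.812) and Alg2 (0.810) for Csnk1d, Sfxn3 (0.830), Atcay (0.828) and Chga (0.828) for Csnk1e, and Ctnnd1 (0.747), Gm5898 (0.744) and Daam1 (0.743) for Btrc. No gene appears in the lists of 2 members or of both tissues.

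Exon bins, the pieces into which overlapping transcripts cut a gene, were counted by the authors for each library. Csnk1d has 26 bins in these files, numbered from its 3′ end, and 25 in M21. Bins 2 to 26 were matched to M21 in order, with bin 1 beyond the annotated 3′ end, since the annotation release is not given in the sources used here. Under that match the log count per base went with the number of M21 transcripts in a bin (r = 0.747 over 25 bins), and with no shift it did not (r = 0.0242). Only these 2 placements were compared, with the extra bin at the 3′ or the 5′ end, and places inside the gene were not tried. Under the match used, bin 5 is the 63 nt exon of Csnk1d-202, also in Csnk1d-203 and Csnk1d-205, which Csnk1d-201 skips. Bin 4 is the next 134 nt and belongs to all 4 of these transcripts; 48 of its bases code in Csnk1d-201, and it lies after the stop codon in Csnk1d-202. Bin 5 held 79 to 234 counts in a liver library and 10 to 139 in an SCN library, and bin 4 held 158 to 455 and 71 to 556.

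Under the match of bins used here, the exon that ends the CK1δ2 reading frame was taken up less in the SCN than in liver. Bin 5 counts per 100 bin 4 counts were 40.2 in the lowest, 49.8 in the median and 61.7 in the highest control liver, and 5.81, 14.1 and 23.1 in the control SCN, so the tissues did not overlap on the control diet. The means were 50.2 ± 5.7 and 15.1 ± 5.7 (SD, n = 18 each). In edgeR's test of bins relative to the rest of their gene, on control libraries of both tissues, bin 5 was lower in the SCN by 1.70 (log2; 0.308-fold, adjusted p = 4.34e-18), and alternative settings gave -1.88 to -1.56. Of 20 Csnk1d bins tested, 10 were called, where 40.5% of all bins and 70.1% of genes with tested bins were called. Bin 11, 501 nt found only in Csnk1d-205 within M21, was lower by 2.21 (adjusted p = 2.28e-08). It held few counts, 6 to 29 in a control liver library. Bin 2, the 1899 nt of the 3′ end, was higher by 0.50 (adjusted p = 5.64e-05). Bins 16, 18, 21, 23, 24, 25 and 26, all in the 5′ part of the gene, were lower by 0.48 to 0.98, and bins 3, 4, 8, 9, 10, 12, 13, 14, 15 and 17 were not called.

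The SCN libraries held fewer counts toward 5′ ends altogether, which moves with the calls in the 5′ bins. Over all genes with enough bins, with the bins of a gene cut into 3 equal groups along its length, the median log2 ratio of counts in the 5′ group to those in the 3′ group was -1.54 to -1.23 in liver libraries (8054 genes) and -3.24 to -2.11 in SCN libraries (9275 genes), and for Csnk1d it was -1.44 ± 0.11 in control liver and -2.37 ± 0.44 in control SCN (SD, n = 18). Its part in the bin differences was not tested. Bins 6 and 7, next to bin 5 toward the 5′ end and each in 1 M21 transcript (Csnk1d-203 and Csnk1d-204), were not among the tested bins. The nearest tested bins on that side, 8, 9 and 10, differed by -0.02, -0.15 and 0.03 and bin 4 on its 3′ side by 0.04, and none of these was called. A bin is tested against its own gene, so a large shift in 1 bin moves the others too. Csnk1e had 6 of 24 and Btrc 8 of 22 bins called in the same comparison.

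**Figure D4:**
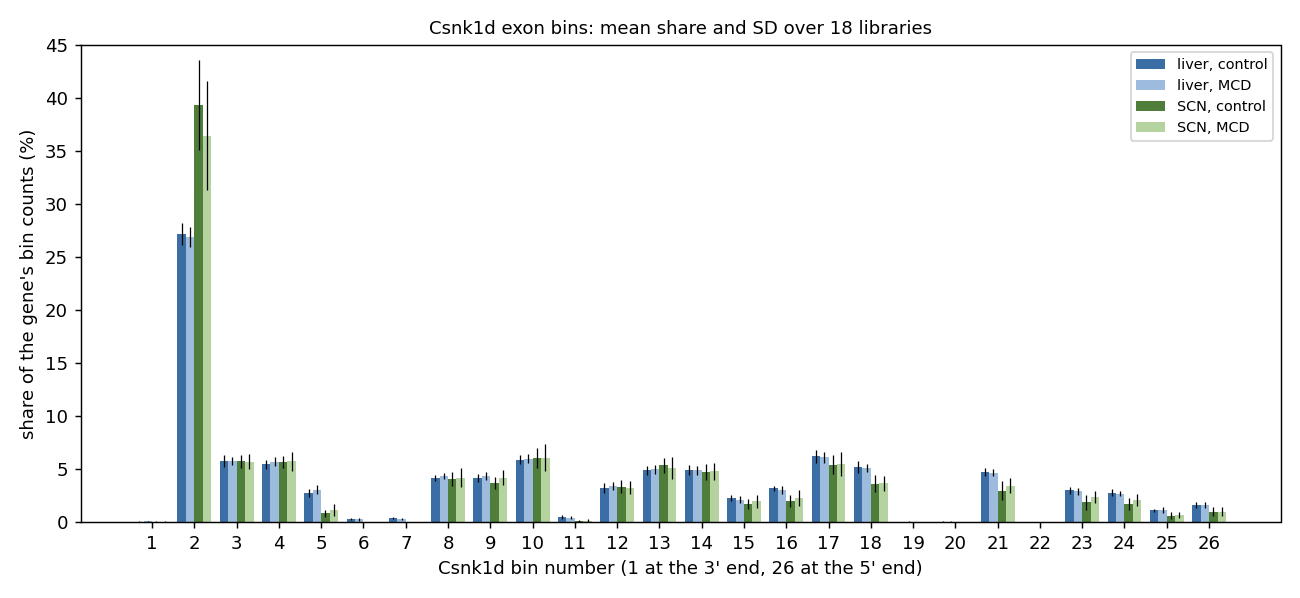
Share of Csnk1d bin counts (y axis, %) in each of its 26 exon bins (x axis, bin 1 at the 3′ end), as mean and SD over 18 libraries for each tissue and diet. Bin 5 holds 2.74% of counts in control liver and 0.856% in control SCN, bin 2 holds 27.2% and 39.3%, and the 2 diets lie side by side in each tissue.

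By diet, no Csnk1d bin was called in liver, of 22 tested in 34 libraries, or in the SCN, of 19 tested in 36 libraries, where 0.4% and 0.00451% of all bins were called by edgeR. Unadjusted p-values were below 0.05 for none in liver and for 1 in the SCN (bin 23, 0.35), and limma's test of bins called none. Nor was the gene called as a whole (Simes test over its bins, adjusted p = 1.0 in both tissues), where 3.45% and 0.0387% of genes were. Bin 5 counts per 100 bin 4 counts were 53.7 ± 6.0 in MCD liver (45.7 to 66.7), beside 50.2 ± 5.7 on control, a relative change of 0.17 (log2, unadjusted p = 0.12, adjusted p = 1.0). The highest mean of a time was that of MCD livers at CT20, whose libraries stood at 55.2, 65.4 and 66.7 against 48.5, 51.6 and 52.5 in controls. That time was picked after the values were seen, and single times were not tested. Liver means on control were 50.5 (CT0), 47.8 (CT4), 53.0 (CT8), 51.0 (CT12) and 48.0 (CT16). On MCD diet they were 49.7, 52.0, 51.0, 51.0 and 56.0. In the SCN, bin 5 counts per 100 bin 4 counts were 20.5 ± 11.2 on MCD diet (7.11 to 49.3), a relative change of 0.40 (unadjusted p = 0.0815, adjusted p = 1.0). The 2 highest were an MCD library at CT4 (49.3) and one at CT12 (42.6). These SCN ratios rest on 10 to 139 counts of bin 5 a library.

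**Figure D5:**
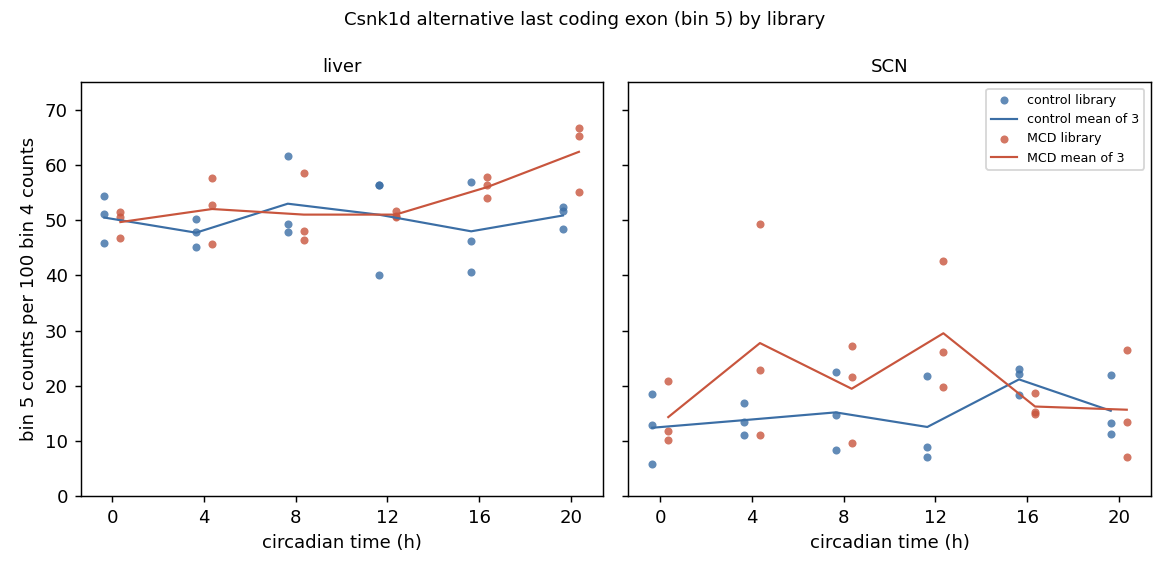
Counts of Csnk1d bin 5, matched to the exon that ends the CK1δ2 reading frame, per 100 counts of bin 4 (y axis) against circadian time in hours (x axis), 1 point a library, with lines through the means of 3. Liver libraries lie between 40.2 and 66.7 and SCN libraries between 5.81 and 49.3, of which an MCD library at CT4 (49.3) and one at CT12 (42.6) are the highest.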

How the data were processed

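Whole-number read counts per gene were deposited in 1 table per tissue (36 libraries each) and counts per exon bin in 1 file per library. Per the submitters' processing notes, which give no order or versions, Trimmomatic, HISAT2, StringTie, DESeq2 and build GRCm39 were used; for the counter, annotation release and strand setting, the sources used here name nothing. Libraries were made from polyadenylated RNA with a stranded kit, per the labels' protocols.

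The members and gene lists were chosen with earlier results of these data known. Named are the 3 members, Fbxw11, up to 6 called genes of the turnover list with the largest change per contrast, the 5 substrates, the 3 genes most like each member (1 of those for Btrc in liver is not reported here), and the Csnk1d bins past the threshold or of 1 transcript end. Outside that rule, the other casein kinases, Mapk8 in the SCN and the casein kinase 2 subunits between tissues were named after their values were seen.

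Counts were fitted with edgeR 4.0.16 (R 4.3.3; TMM, filterByExpr, robust quasi-likelihood): 12 groups of diet and time plus sex per tissue, diet as the mean over 6 times, rhythm as a test of 2 degrees of freedom. The filter kept 20249 of 22823 liver genes and all 15759 of the SCN. Intervals are 1.96 SE either way. Bins were tested with diffSpliceDGE (time and sex as terms; pandas 2.3.3 for tables). Alternatives were DESeq2 1.42.0, limma 3.58.1, RLE size factors, library totals, no filter, no sex term, a replicate block (without the unnumbered libraries named below), a term for the mt-Nd6 kind, and left-out libraries. Scripts were tested on simulated data.

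Both tables name 2 control CT8 male columns alike, so these carry no number and are called a and b; they stayed in when a number was left out. The bin files of liver control CT0 1 and 2 end early and were left out of the bin tests, but reach Csnk1d and enter its shares. The bin test by tissue thus uses 34 control libraries. No 2 libraries of a group were identical (chi-square per degree of freedom of at least 29.3 in liver and 24.1 in SCN).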

Additional observations from a re-analysis of the deposited data

Results flagged for a closer look

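The diet change of Csnk1e, of 11 of the 35 turnover genes (4 more upward and 7 more downward in liver) and of 2 of the 5 substrate genes differed between liver and SCN in the joint test of all 72 libraries (edgeR, liver minus SCN on the log2 scale, adjusted over 14491 genes). Csnk1e differed by 0.59 ± 0.08 (SE; adjusted p = 3.13e-07), the widest positive difference of these. The ubiquitin ligase genes Fbxw11 (0.23 ± 0.05, adjusted p = 0.000112) and Mdm2 (0.30 ± 0.08, adjusted p = 0.00178) and the phosphatase subunit Ppp2cb (0.31 ± 0.06, adjusted p = 3.27e-05) also changed more upward in liver, as did the phosphatase gene Ppp5c (0.24 ± 0.05). Cul4a (-0.38 ± 0.07, adjusted p = 1.72e-05) and the AMPK subunit Prkaa2 (-0.33 ± 0.11, adjusted p = 0.0128) changed more downward, as did the kinase gene Mapk8 (-0.27 ± 0.07, adjusted p = 0.00127), the casein kinase 2 subunits Csnk2a1 (-0.16 ± 0.05, adjusted p = 0.0134) and Csnk2b (-0.17 ± 0.06, adjusted p = 0.0332) and the substrate genes Cry2 (-0.46 ± 0.09, adjusted p = 8.55e-05) and Per3 (-0.74 ± 0.19, adjusted p = 0.00147). Of all genes tested 34.7% were called in this comparison.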

How the results depend on the processing

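The rise of Csnk1e in liver kept its direction and its call under each of 50 alternatives, from 0.57 to 0.91 on the log2 scale, and its larger change in liver than in SCN was kept as well. Library totals alone turned Btrc in liver (0.16), Btrc between tissues (0.076), Prkaa2 in liver (0.012) and the tissue level of Csnk1d (0.61), ended the call of the liver MCD rhythm of Csnk1d (range 0.22), called Csnk1d at 5 times in place of 1 and called its diet change as different between tissues (0.29). The tissue level of Csnk1d was not called with DESeq2 (-0.025), RLE (-0.025) or without control CT8 a (-0.074). DESeq2 and RLE both called the liver MCD rhythm of Btrc (range 0.30), as did a term for the mt-Nd6 kind (0.30), which also called Btrc for diet (-0.12). Within the high and low kind Csnk1d was not called (0.12 and 0.13). Csnk1d was called at 0 times with RLE, limma, no filter or no sex term. Without control CT8 a the control rhythm of Btrc was not called (0.31) and Csnk1d was called as different between tissues (0.14). The causes were not tested.

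Same-numbered libraries had r over 0.1 in 6 of 15 liver and 4 of 15 SCN pairs (median 0.03 and -0.03). Pairing was not settled (highest r 0.30 and 0.32). With a replicate block in place of sex, a fit that also leaves out the 2 unnumbered control CT8 libraries of each tissue, the control rhythms of Btrc in liver (0.28, adjusted p = 0.105) and Csnk1e in SCN (0.35, adjusted p = 0.106) were not called, Csnk1d was called at 2 times and as different between tissues (0.17), its tissue level turned to 0.0045 and the sex difference of Btrc in liver to -0.043. This fit gave 4 SCN diet genes in place of 10, 1248 control SCN rhythms in place of 2378 and 651 liver rhythm differences in place of 986. Which of the 2 changes moved these values was not tested.

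Leaving out single libraries or numbers gave -0.12 to -0.078 for Btrc in liver and -0.042 to 0.0086 for Btrc in SCN, where it turned without number 3 (0.0040) and without control CT20 3. Ranges were 0.25 to 0.44 for the liver control rhythm of Btrc and 0.23 to 0.34 on MCD, 0.22 to 0.32 for Csnk1d on MCD in liver, 0.21 to 0.47 for Csnk1e there (called without MCD CT12 2, 0.39), and 0.30 to 0.50 on control and 0.30 to 0.48 on MCD for Csnk1e in SCN. The sex difference of Btrc ran from -0.043 to 0.084 in liver (turned without control CT8 3 or CT12 3, -0.021) and from -0.15 to 0.010 in SCN (turned without control CT20 3). The tissue level of Csnk1d ran from -0.14 to -0.068. Csnk1d was called at 0 to 2 times and Csnk1e at 0 to 4, with 0 without number 1 and 2 without number 2. Sex differences could not be computed without a term for sex or without number 3.

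Some counts of called genes moved by over 1.5 times. SCN diet genes were 48 with DESeq2, 20 with limma, 6 with no sex term, 2 without number 1, 0 without number 2, 16 and 17 without control CT0 3 or CT16 3, in place of 10. At single SCN times edgeR called 0 to 7 genes and DESeq2 5 to 29. Liver diet genes were 5096 within the high and 4583 within the low kind, in place of 9426. At CT8 in liver 656 (DESeq2) and 140 (no sex term) were called in place of 263. Library totals gave 3971 at CT0, 6475 at CT12, 4162 at CT16 and 3560 at CT20. DESeq2 gave 2017 liver rhythm differences (986), 741 liver sex differences (359) and 8 SCN rhythm differences (2). Within the high kind 1 of the list was higher and 4 lower, and within the low kind 4 and 4.

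With libraries left out, counts in liver ran from 84 to 3059 at CT0 (2550), 330 to 4249 at CT4 (3679), 8 to 1212 at CT8 (263), 54 to 3810 at CT12 (3081), 323 to 3160 at CT16 (2532) and 237 to 2845 at CT20 (2288), each lowest count coming without all libraries of number 1 or 2. Without 1 library the count was 1212 (control CT8 a) or 37 (control CT8 b) at CT8, and at the other times 1140 (MCD CT16 3) or more. Rhythmic genes ran from 565 to 3957 on control (3611) and 2448 to 6240 on MCD (5704) in liver, and from 811 to 2621 (2378) and 775 to 2911 (2544) in SCN. Liver rhythm differences ran from 4 to 1243, liver sex differences from 19 to 497, and genes with bins that differed by diet in liver from 174 to 292 (404; 211 at a minimum count of 50). Without number 1, 2941 genes differed between tissues in diet change (5025) and 5 of the list were lower in liver (10).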

Other observations

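Exon bins of the other 2 members were read beside those of Csnk1d. By diet, none of 22 Csnk1e and 20 Btrc bins tested in liver and none of 25 and 23 in the SCN was called by edgeR.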
